A study of Rattus norvegicus with 19 samples.

Results

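Translation initiation factors (eIFs) and elongation factors (eEFs) were followed at the mRNA level in primary rat spinal cord cultures. The genes were taken by name, as every row of the table whose symbol starts with Eif and a digit from 1 to 6, or with Eef and the digit 1 or 2, which gave 62 of 15597 genes. No measured value entered this choice, and all 62 passed the filter that kept 11887 genes for testing. Eif3e and Eif4g1, which the naming rule for described genes lists, were not analysed here.

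Cultures of ventral spinal cord came from E14 embryos of wild-type Sprague-Dawley rats, and 19 RNA sequencing libraries were made from them. Control cultures (n = 5) received no treatment. The polyP cultures (n = 5) received long-chain polyphosphate (polyPL), a linear chain of phosphate units, at 100 μM for 90 min. The wtSOD1-ACM cultures (n = 4) were exposed for 90 min to medium in which mouse astrocytes with wild-type human SOD1 had grown. The mutSOD1-ACM cultures (n = 5) had the same exposure to medium of mouse astrocytes bearing the G93A form of human SOD1, a cause of familial amyotrophic lateral sclerosis. The treated rat cells themselves were wild type in all 4 groups, and the labels tie the transgenes to the astrocyte donors only. Control cultures received no conditioned medium of any kind, so a comparison of either conditioned medium with control includes whatever conditioning itself brings. The title of the series asks which transcripts polyPL and mutSOD1-ACM induce in common. The labels give 3 different statements of the age of the cultures, so the day in vitro is not given here.

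Levels are FPKM, the number of fragments scaled to transcript length in kilobases and to library size. Between 11309 and 11723 genes per library reached an FPKM of 1, and the libraries had 0.759 to 1.35 times the depth of the median one. Neuronal Tubb3 lay between 361 and 773 FPKM. The motor neuron genes Chat, Slc18a3, Isl1 and Mnx1 reached no more than 1.34, 1.72, 0.45 and 0.14 FPKM. Clustering divided the libraries into 2 sets that cut across all groups, a division made from the data and not named in the labels. Set 1 (11 libraries: replicates 1 to 3 of control, polyP and mutSOD1-ACM, and replicates 1 and 2 of wtSOD1-ACM) had myelin gene Mbp at 169 to 372 FPKM. Set 2 (the other 8 libraries) had it at 6.54 to 9.62 FPKM.

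A ribosome starts on an mRNA when eIF2 brings the initiator tRNA and the eIF4 proteins, bound at the cap, recruit the small subunit through eIF3. eIF1, eIF1A, eIF5 and eIF5B govern the search for the start codon and the joining of the large subunit. Elongation needs eEF1A, which delivers each charged tRNA, its exchange factor eEF1B, and eEF2, which moves the ribosome along. Phosphorylation of eIF2 by the eIF2 kinases lowers initiation on most mRNAs, and the 4E-binding proteins sequester eIF4E until mTORC1 phosphorylates them. Many mRNAs of elongation factors, of some initiation factors and of ribosomal proteins begin with a 5′ terminal oligopyrimidine (TOP) tract, a C followed by a run of pyrimidines, through which mTORC1 controls their translation.

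Some members hold a pyrimidine tract near the annotated start, and several share a promoter motif. RefSeq promoter windows (rat build GRCr8, from 250 bases before to 50 bases after the annotated start) matched 56 of the 62 members, and no entry was found for Eef1d, Eif3el1, Eif3h, Eif4b, Eif4e3 and Eif4ebp1. The sequences below run 5′ to 3′ on the strand of the gene over 50 bases centred on the annotated start. Capitals mark a tract that opens with C and holds only C and T for 7 bases or more, with the length of 7 and the window chosen with the data known. Eef1a1, Eef2, Eef1b2, Eif3f and Eif2s3 are shown as members with such a tract whose mRNAs rose with polyP as deposited. Eef1a2 is shown because it is the neuronal and muscle isoform of eEF1A and was not called. Other members that rose, among them Eif1ax, Eif2s1, Eif2s2 and Eif5a, hold no such tract in this window.
Eef1a1, chr8:88225045-88225094, minus strand: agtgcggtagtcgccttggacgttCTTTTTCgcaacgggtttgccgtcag
Eef2, chr7:9189214-9189263, minus strand: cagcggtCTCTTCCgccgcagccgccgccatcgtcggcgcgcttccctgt
Eef1b2, chr9:72074066-72074115, plus strand: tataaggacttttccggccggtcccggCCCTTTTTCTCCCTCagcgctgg
Eif3f, chr1:172369037-172369086, plus strand: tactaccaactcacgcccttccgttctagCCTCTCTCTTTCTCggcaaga
Eif2s3, chrX:62933675-62933724, minus strand: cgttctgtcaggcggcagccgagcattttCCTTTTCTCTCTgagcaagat
Eef1a2, chr3:188652609-188652658, minus strand: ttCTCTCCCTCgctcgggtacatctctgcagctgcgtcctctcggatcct

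Such a tract lay within 25 bases of the annotated start in 22 of 56 members (39.3%), against 21.5% of the promoters of all tested genes and 21.9% of all rat promoters in the table. It was present in 16 of the 37 matched members called higher with polyP and in 6 of the other 19 matched members. In the windows of Eef1a1, Eef2 and Eef1a2 it begins upstream of the annotated start, at positions -1, -18 and -23. In those of Eef1b2, Eif3f and Eif2s3 it begins at positions 3, 5 and 5. No tract printed above begins at the annotated start itself. RefSeq's gene table of the same build gives some genes a 5′ end upstream of the start used for the window, by 7017 bases for Eef2, 619 for Eef1a1, 237 for Eif2s3 and 64 for Eif3k, and the same base for the other 5 genes printed. Of the 59 windows of members, 26 start more than 25 bases inside the gene's span, so the place of a tract relative to the start of the mRNA is uncertain for these. Which start these cultures use was not tested. A match is a stretch of letters and not a measured transcript start.

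The 3 eIF3 subunits below are shown because all carry, near the start, the letters TTCCGG (capitals), the reverse complement of the ETS factor core CCGGAA. Eif3i and Eif3m mRNA rose with polyP, and Eif3k was not called.
Eif3i, chr5:147226886-147226935, minus strand: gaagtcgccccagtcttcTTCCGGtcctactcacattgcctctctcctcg
Eif3m, chr3:111897169-111897218, minus strand: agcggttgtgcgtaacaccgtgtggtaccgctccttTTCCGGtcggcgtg
Eif3k, chr1:93397463-93397512, minus strand: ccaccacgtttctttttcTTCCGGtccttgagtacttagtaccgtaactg
On either strand of the whole 300-base window, CCGGAA was present in 29 of 56 members (51.8%), against 27.0% of the promoters of tested genes and 15.0% of all promoters. It was in 19 of the 37 matched members called higher and in 10 of the other 19. In Eif3m and Eif3k the last letters of a pyrimidine tract overlap the motif. Other motifs were searched on both strands of the same window. The E-box CACGTG was in 10 members (17.9%, against 9.23% of tested genes' promoters) and the GC box GGGCGG in 40 (71.4% against 62.5%). The CCAAT box CCAAT was in 19 (33.9% against 37.1%) and the cyclic AMP response element TGACGTCA in 1 (1.79% against 3.31%).

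The members are abundant mRNAs. The median of their mean levels was 67.9 FPKM, against 15.3 FPKM over all tested genes, and 18 members averaged 100 FPKM or more, 38 lay between 10 and 100, and 6 were under 10. Eef1a1 (gene ID 171361), the general form of eEF1A, had the second highest mean of the whole table (rank 2), at 3330 FPKM over the 19 libraries. It was followed among the members by Eef2 (29565) at 845 FPKM, the eEF1B gamma subunit gene Eef1g (293725) at 592, the start codon selection factor Eif1 (287703) at 522 and the translocation and peptide bond factor Eif5a (287444) at 478. At the other end stood Eif4e3 (297481), an atypical cap-binding protein, at 1.95 FPKM, the double-stranded RNA activated eIF2 kinase Eif2ak2 (54287), known as PKR, at 6.20, and the eEF2 lysine methyltransferase Eef2kmt (302931) at 7.00. FPKM divides by transcript length, so these levels can be set against each other.

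The first comparison, polyP against control, asks what 90 min of polyPL does to these mRNAs. Of the 62 members, 42 were called higher and 1 lower, and 19 were not called, with limma on log2(FPKM + 1) over all tested genes at an adjusted p under 0.05. Across all tested genes 23.0% were called higher and 8.77% lower, and among genes with a mean FPKM of 10 or more, a level most members reach, 30.4% were called higher. The median log2 difference was 0.22 over the members and 0.04 over all tested genes. The rises that were called were small, from 9.49% to 46.4% of the control mean, with a median of 21.1%. In 29 members every polyP library lay above every control library, which held for 14.6% of all tested genes. In whole cultures, more cells of a type and more mRNA per cell cannot be told apart. The summed FPKM of all genes was itself 1.08-fold higher with polyP (502342 ± 12154 against 464188 ± 13828, SD, n = 5 each; two-sided exact permutation p = 0.00794, the smallest that 5 against 5 can give), so the scaling bears on every count here. Scaling all libraries to equal sums, by median of ratios or by quantiles left 22, 26 and 26 members called higher, where 11.8%, 15.1% and 19.5% of all tested genes were, and 2 members called lower in each case, against 14.0%, 13.0% and 9.30%. Of the 42 members, 18 were called higher under all 3. The share of all tested genes called higher under all 3 was not counted, and it cannot exceed the 11.8% with equal sums. With equal sums the median of all genes moved by -0.10, and the members' median was 0.11 against -0.06 for all genes. Of all calls in the table, 72.4% were higher as deposited, against 45.7% with equal sums, 53.7% with median of ratios and 67.7% with quantiles.

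**Figure D1:**
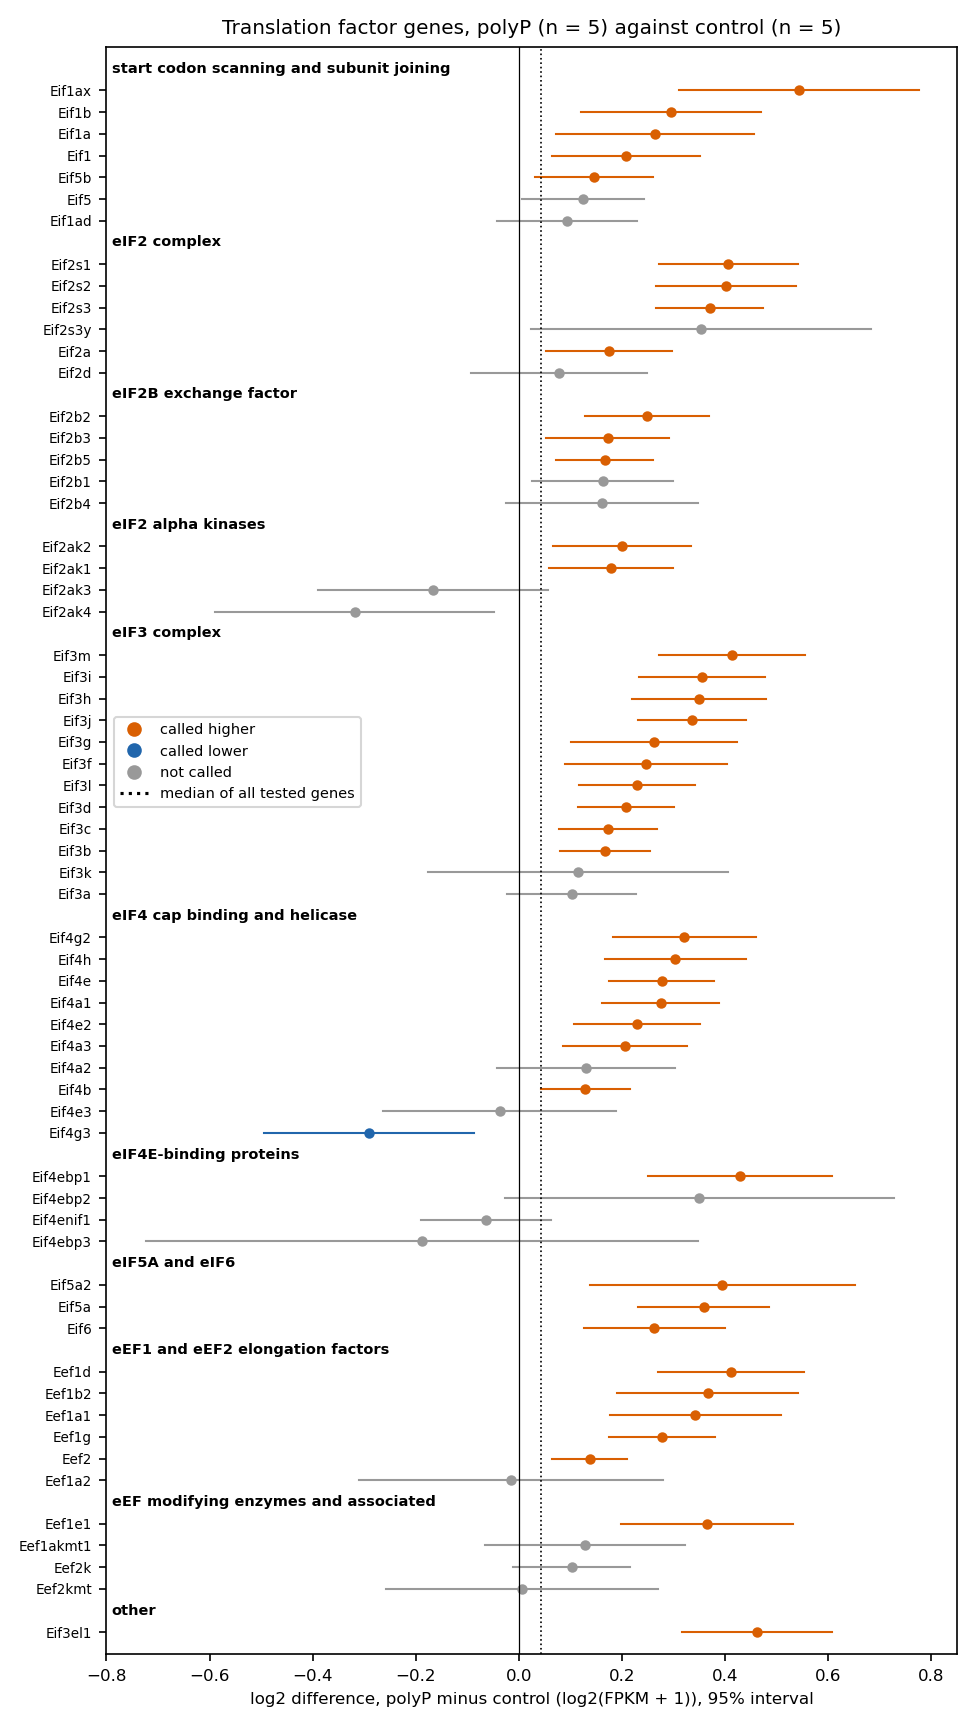
Log2 difference of log2(FPKM + 1), polyP minus control (x axis), with 95% limma intervals for the 62 members grouped by role, colored by call, with the median of all tested genes as a dotted line. Called rises run from 0.13 (Eif4b) to 0.54 (Eif1ax) and Eif4g3, at -0.29, is the 1 called lower; after quantile normalization the estimates of Eef2, Eef1g and Eif1 change sign.

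The 18 members called higher under every scaling were Eef1b2, Eef1d, Eef1e1, Eif1ax, Eif2b2, Eif2s1, Eif2s2, Eif2s3, Eif3el1, Eif3h, Eif3i, Eif3j, Eif3m, Eif4e, Eif4ebp1, Eif4h, Eif5a and Eif6. All of these except Eef1b2, Eif2b2, Eif4h and Eif6 were also called higher in each library set fitted alone, which makes 14. They include the 3 subunits of eIF2, the cap-binding protein eIF4E and the eIF4E-binding protein 4E-BP1. The share of all tested genes that met the same conditions was not counted.

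Among the factors of start codon selection and subunit joining, 5 of 7 rose, with a list median of 0.21. Eif1ax (302697), the X-linked gene of eIF1A, showed the largest rise of all members. Its FPKM was 60.97, 56.86, 66.58, 49.19 and 54.11 in control replicates 1 to 5, and 90.21, 96.35, 83.20, 75.97 and 75.59 in polyP replicates 1 to 5. The lowest polyP library lay above the highest control library, and in both groups the libraries of set 1 were the higher ones. The means were 57.5 ± 6.62 and 84.3 ± 9.04 FPKM (SD, n = 5 each), a log2 difference of 0.54 ± 0.11 (SE; limma adjusted p = 0.00129). The related gene Eif1a (317163) rose less, from 23.9 to 28.8 FPKM (0.26, limma adjusted p = 0.0342), and its libraries overlapped. Eif1 rose from 498 to 575 FPKM (0.21, limma adjusted p = 0.0260) as deposited, and lay 0.03 lower after quantile normalization. Eif5 (108348073), the factor that triggers GTP hydrolysis by eIF2, stood at 101 and 110 FPKM and was not called (0.12, limma adjusted p = 0.102).

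The 3 subunits of eIF2 rose together. Eif2s1 (54318), the alpha subunit that the eIF2 kinases phosphorylate, stood at 56.38, 47.11, 57.18, 51.29 and 57.15 FPKM in control replicates 1 to 5 and at 72.31, 75.58, 64.98, 73.36 and 71.59 in polyP. Eif2s2 (296302), the beta subunit, stood at 93.65, 82.35, 100.57, 86.15 and 102.84 FPKM in control and at 123.91, 127.06, 117.44, 121.01 and 125.34 in polyP. Eif2s3 (299027), the X-linked gamma subunit that holds the initiator tRNA, stood at 60.19, 54.27, 64.18, 57.78 and 62.96 FPKM in control and at 74.31, 76.92, 73.42, 81.44 and 81.95 in polyP. For all 3 subunits the groups did not overlap. The log2 differences were close to each other, at 0.41 ± 0.06, 0.40 ± 0.06 and 0.37 ± 0.05 (SE; limma adjusted p = 0.000239, 0.000252 and 0.000123). The Y-linked form Eif2s3y (100312984) went from 23.0 to 29.8 FPKM, with overlap, and was not called (0.35, limma adjusted p = 0.0942). Reads from the X and Y forms are alike and may be split between them. Over the list of 6, which also holds the non-classical factors Eif2a (called higher) and Eif2d (not called), 4 rose, with a median of 0.36.

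Of the 5 subunits of eIF2B, the factor that recharges eIF2 with GTP, 3 rose: Eif2b2 (0.25), Eif2b3 (0.17) and Eif2b5 (0.17), the last being the catalytic subunit, with limma adjusted p of 0.00308, 0.0278 and 0.00856. Eif2b1 and Eif2b4 gave estimates of a like size, 0.16 each, and were not called (limma adjusted p = 0.0643 and 0.178). The median of the list was 0.17. The eIF2 kinases were divided. Eif2ak1, the heme-regulated kinase, rose from 21.8 to 24.8 FPKM (0.18, limma adjusted p = 0.0225), and Eif2ak2 from 6.06 to 7.09 FPKM (0.20, limma adjusted p = 0.0230). Eif2ak3, the endoplasmic reticulum stress kinase PERK, stood at 12.9 and 11.3 FPKM (-0.17, limma adjusted p = 0.244), and Eif2ak4, the amino acid sensor GCN2, at 9.86 and 7.68 FPKM (-0.32, limma adjusted p = 0.0670). Neither Eif2ak3 nor Eif2ak4 was called as deposited, and neither Eif2ak1 nor Eif2ak2 held its call under all 3 scalings. Equal sums and median of ratios each called 1 member lower besides Eif4g3. Whether Eif2ak3 or Eif2ak4 was called lower under another setting is not given here.

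Of the 12 tested eIF3 subunits in the list, 10 rose and 2 were not called, with a median of 0.24. Eif3m (295975) showed the largest rise in the list, from 83.33, 73.63, 81.89, 64.81 and 77.10 FPKM in control replicates 1 to 5 to 102.41, 108.92, 96.58, 103.35 and 95.90 in polyP, without overlap (0.41 ± 0.07 SE, limma adjusted p = 0.000291). Eif3i, Eif3h and Eif3j followed at 0.36, 0.35 and 0.34 (limma adjusted p = 0.000293, 0.000465 and 0.000171), each without overlap. Eif3j is the loosely bound subunit, and Eif3h and Eif3f belong to the pair of MPN-domain subunits of the complex. Eif3f rose by less, from 161 to 191 FPKM (0.25, limma adjusted p = 0.0169). Eif3b and Eif3c gave 0.17 each (limma adjusted p = 0.00489 and 0.00722), the smallest of the called estimates in the list, and Eif3a, the largest subunit, was not called at 78.5 and 84.2 FPKM (0.10, limma adjusted p = 0.201). Differences between subunits were not tested. Eif3el1 (299872), annotated as subunit E-like 1 and kept out of the role lists, stood at 90.23, 76.48, 97.71, 87.32 and 91.61 FPKM in control and at 126.51, 130.34, 111.88, 120.94 and 122.02 in polyP. All 5 polyP libraries lay above all 5 control libraries (0.46 ± 0.07 SE, limma adjusted p = 0.000177), and whether its reads come from an Eif3e locus cannot be told from the table.

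The eIF4 group, which binds the cap and unwinds the leader, had 7 members called higher, 1 called lower and 2 not called, with a median of 0.22. Eif4e (117045), the cap-binding protein, stood at 57.40, 51.43, 61.90, 58.97 and 61.82 FPKM in control replicates 1 to 5 and at 68.57, 73.34, 68.06, 72.05 and 71.62 in polyP. The groups did not overlap (58.3 ± 4.30 against 70.7 ± 2.30, SD; 0.28 ± 0.05 SE, limma adjusted p = 0.000425). Its helicase partner Eif4a1 rose from 438 to 529 FPKM (0.28, limma adjusted p = 0.000949), while the isoform Eif4a2 stood at 173 and 189 FPKM and was not called (0.13, limma adjusted p = 0.240). Eif4b, which stimulates the helicase, showed the smallest called rise of all members (0.13, limma adjusted p = 0.0217). Eif4g2 (361628), also known as DAP5, which supports cap-independent initiation, rose from 406 ± 33.8 to 506 ± 20.4 FPKM (SD, n = 5 each) without overlap (0.32, limma adjusted p = 0.00136).

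Eif4g3 (298573), a scaffold of the cap-binding complex, was the member called lower. It stood at 56.49, 67.54, 63.37, 76.37 and 63.71 FPKM in control replicates 1 to 5 and at 51.11, 47.16, 57.14, 54.69 and 56.01 in polyP. Control replicate 1 fell inside the polyP range, and the other 4 control libraries lay above it (-0.29 ± 0.10 SE, limma adjusted p = 0.0293). The call held under all 3 scalings. It was lost without control replicate 2 (limma adjusted p = 0.0607), control replicate 4 (0.0870), polyP replicate 1 (0.0613) or polyP replicate 2 (0.0820), and within library set 1 (-0.27, limma adjusted p = 0.0707), while within set 2 it was kept (-0.33, limma adjusted p = 0.00606).

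**Figure D2:**
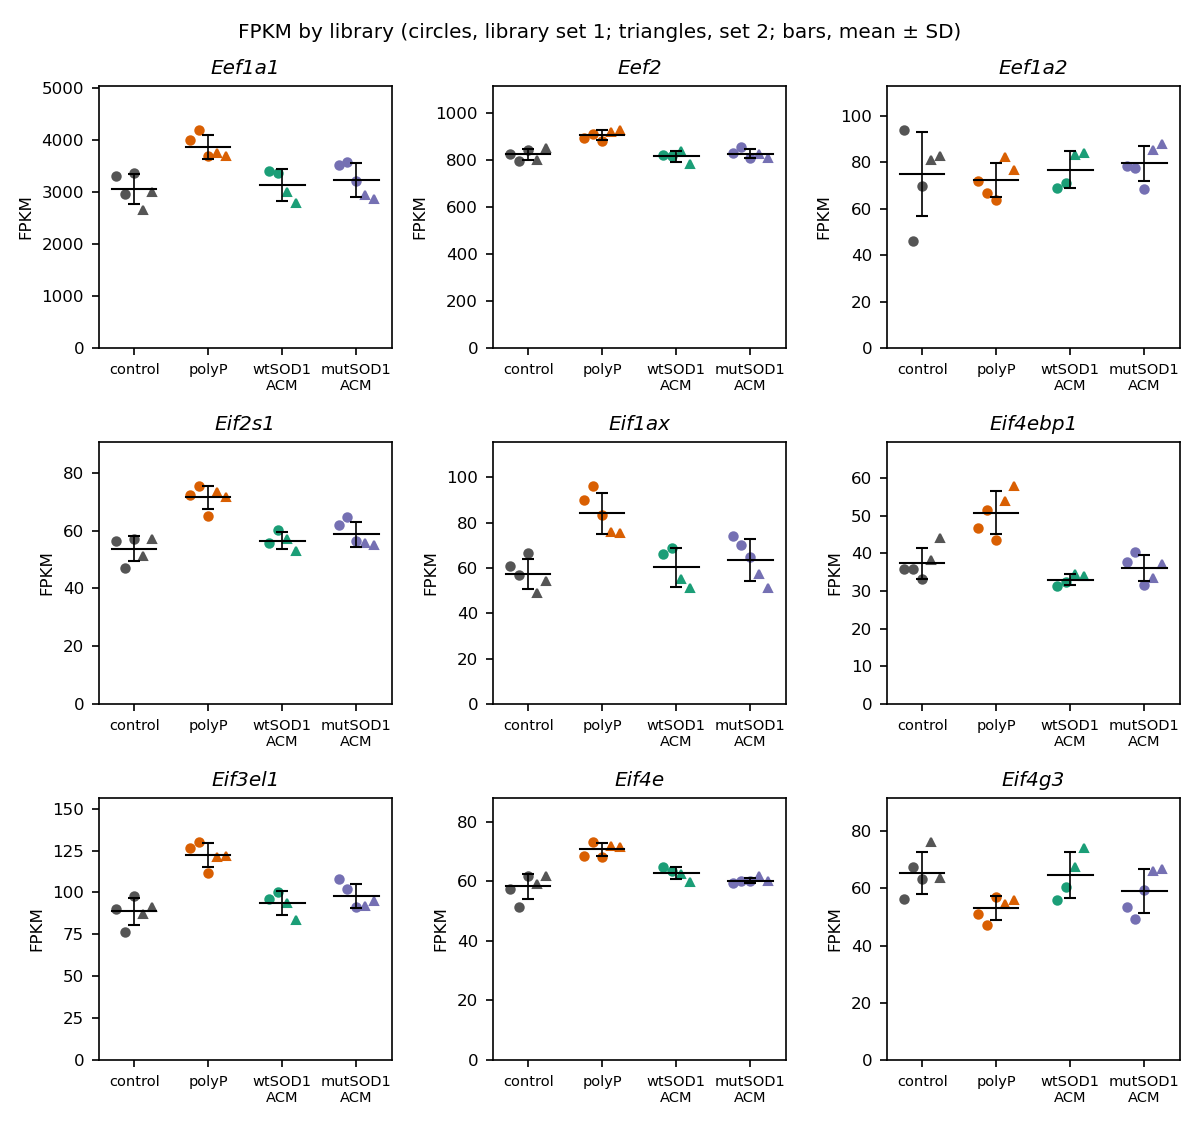
FPKM (y axis, from 0) of 9 members by group, a point per library (circles, library set 1; triangles, set 2) with mean ± SD (SD over 4 or 5 libraries). PolyP libraries lie above all control libraries for Eef1a1, Eef2, Eif2s1, Eif1ax, Eif3el1 and Eif4e, although Eef2 changes sign after quantile normalization, while Eef1a2 overlaps and Eif4g3 is lower.

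Of the 4 genes for proteins that bind eIF4E, only Eif4ebp1 (116636), the gene of 4E-BP1, was called. It stood at 35.87, 35.78, 33.24, 38.21 and 44.02 FPKM in control replicates 1 to 5 and at 46.70, 51.47, 43.65, 54.02 and 58.02 in polyP. Control replicate 5 reached just above the lowest polyP library, and the other control libraries lay below all polyP libraries (37.4 ± 4.08 against 50.8 ± 5.72, SD; 0.43 ± 0.08 SE, limma adjusted p = 0.00104). Its relatives were not called, and their levels varied with the library set. Eif4ebp2 stood at 27.97 to 48.04 FPKM in control and 38.97 to 55.71 in polyP (0.35, limma adjusted p = 0.146), and Eif4ebp3 at 9.07 to 16.80 and 7.48 to 17.54 (-0.19, limma adjusted p = 0.602). Eif4ebp3 lay at 7.48 to 12.0 FPKM in the 11 libraries of set 1 and at 13.67 to 17.58 in the 8 of set 2, with no overlap in any treatment. Eif4ebp2 went the other way, at 42.02 to 55.71 FPKM in set 1 and 27.97 to 45.87 in set 2, with overlap.

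**Figure D3:**
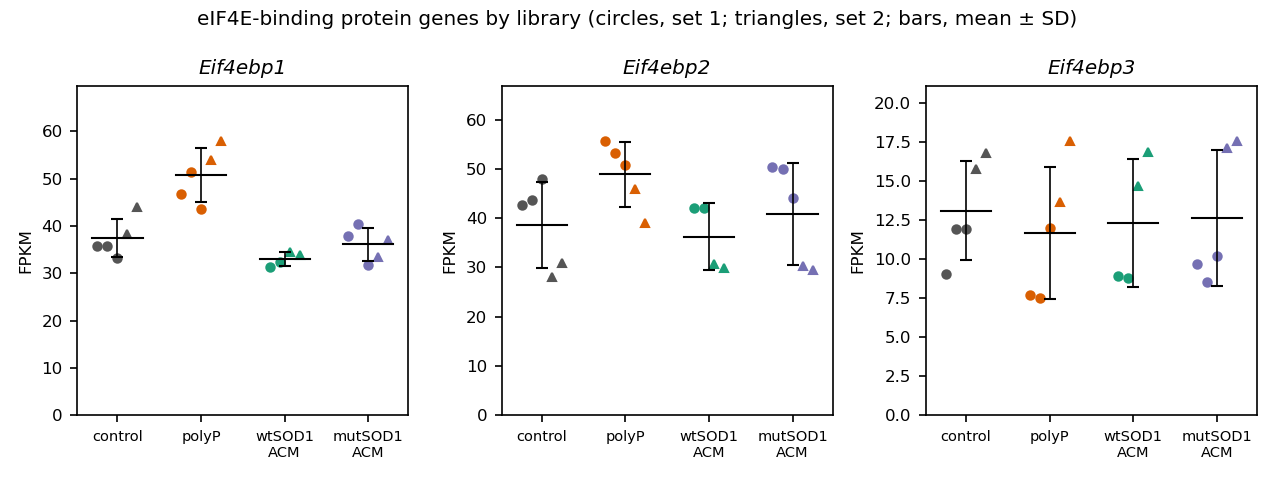
FPKM (y axis, from 0) of the 3 genes for 4E-binding proteins by group, a point per library (circles, library set 1; triangles, set 2), with mean ± SD. Eif4ebp1 is highest with polyP in both sets, whereas Eif4ebp3 separates by library set (7.48 to 12.0 FPKM in set 1, 13.67 to 17.58 in set 2) in all 4 groups.

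Eif5a, Eif5a2 and Eif6 all rose, with a list median of 0.36. Eif5a went from 430 ± 38.2 to 551 ± 34.0 FPKM (SD, n = 5 each; 0.36, limma adjusted p = 0.000345), without overlap, and the minor isoform Eif5a2 from 7.01 to 9.47 FPKM (0.39, limma adjusted p = 0.0198). Eif6, which keeps ribosomal subunits apart, went from 61.8 ± 6.21 to 74.2 ± 5.83 FPKM (0.26, limma adjusted p = 0.00495), with overlap. eIF5A works only once it carries hypusine, made from spermidine. Of 4 genes of that route, 3 rose: Amd1 (61.7 ± 4.73 to 72.4 ± 1.79 FPKM, 0.23), Odc1 (170 ± 31.2 to 229 ± 22.9, 0.44) and Dohh (34.2 ± 3.51 to 40.5 ± 3.31, 0.24), with limma adjusted p of 0.00458, 0.00890 and 0.0213.

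Of the 6 elongation factor genes, 5 rose, with a list median of 0.31. Eef1a1 stood at 3297.85, 2962.34, 3370.00, 2655.57 and 2989.61 FPKM in control replicates 1 to 5 and at 3998.44, 4197.29, 3682.46, 3743.80 and 3695.21 in polyP. Every polyP library exceeded every control library (3055 ± 287 against 3863 ± 226, SD; 0.34 ± 0.08 SE, limma adjusted p = 0.00312). The call was not kept under all 3 scalings. Eef1a1 has many processed copies in mammalian genomes, and reads could be split among them. Eef1a2 (24799) stood at 93.95, 46.26, 69.77, 80.98 and 82.53 FPKM in control and at 71.83, 66.80, 63.79, 82.06 and 76.78 in polyP. The groups overlapped fully and the gene was not called (-0.01, 95% interval -0.31 to 0.28, limma adjusted p = 0.947).

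The subunits of the exchange factor eEF1B rose together. Eef1d (300033) went from 72.1 to 96.2 FPKM (0.41, limma adjusted p = 0.000286), Eef1b2 (363241) from 225 to 288 FPKM (0.37, limma adjusted p = 0.00287) and Eef1g from 554 to 673 FPKM (0.28, limma adjusted p = 0.000458), each without overlap. Eef2 stood at 824.73, 798.61, 845.04, 799.97 and 853.48 FPKM in control and at 893.04, 911.75, 880.82, 918.10 and 929.94 in polyP. It rose by 9.99% of the control mean, with groups that did not overlap (0.14 ± 0.03 SE, limma adjusted p = 0.00555). After quantile normalization Eef2 was lower with polyP (-0.15, limma adjusted p = 0.00249), and Eef1g was at -0.01, so for these abundant genes the direction rests on how libraries are scaled. Eef2k (25435), the kinase that inhibits eEF2, stood at 21.3 and 22.9 FPKM and was not called (0.10, limma adjusted p = 0.159). Of the 4 genes that modify or accompany elongation factors, only Eef1e1, a scaffold of the multisynthetase complex, rose (64.2 to 82.4 FPKM, 0.37, limma adjusted p = 0.00201), and Eef2kmt stood at 7.11 and 7.13 FPKM.

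Of the 9 tested members on a list of known TOP mRNAs, 8 rose, with a median of 0.28, and Eef1a2 was the exception. This list was written with earlier results of these data known. Of those that rose, Eef1b2, Eef1d and Eif3h were called under all 3 scalings. Eef1a1, Eef2, Eef1g, Eif3f and Eif4b were not, and after quantile normalization the estimates of Eef2 and Eef1g changed sign. The members together took 2.05% ± 0.078 of the summed FPKM in control and 2.30% ± 0.052 in polyP (SD, n = 5 each), 1.12-fold more, with no overlap (two-sided exact permutation p = 0.00794, the smallest that 5 against 5 can give). Eef1a1 alone made up 3055 of the members' mean sum of 9518 FPKM in control and 3863 of 11552 in polyP. A share without Eef1a1 was not computed. Cytosolic ribosomal protein genes, the other large class of TOP mRNAs, took 9.16% ± 0.61 and 11.2% ± 0.577, and 77 of their 79 tested genes rose, with a median of 0.40. Shares within a library do not change when the whole library is rescaled.

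Other genes of protein synthesis moved in part. Of 7 genes of termination and recycling 6 rose, among them Gspt1, the release factor eRF3a (66.2 ± 3.70 to 81.2 ± 1.65 FPKM, 0.29, limma adjusted p = 0.000238), and Denr, which helps to recycle small subunits (57.1 ± 4.81 to 73.4 ± 4.60, 0.36, limma adjusted p = 0.000604). Of 5 tested poly(A)-binding and TOP regulator genes 4 rose, with Pabpc1, the main cytoplasmic poly(A)-binding protein, at 212 ± 14.1 and 247 ± 5.30 FPKM (0.22, limma adjusted p = 0.00143). Of 9 mitochondrial translation factors 4 rose, with a median of 0.12. For signaling genes upstream of the factors the shares called higher, 28.6% of the mTORC1 list and 18.2% of the integrated stress response list, were near the 23.0% of all tested genes. Of 14 tested mTORC1 genes 4 rose and Mtor fell, with a median of 0.01. The mTORC1 inhibitor Ddit4 had the smallest p among them (28.8 ± 4.38 to 48.2 ± 4.38 FPKM, 0.73, limma adjusted p = 0.000123), followed by the mTORC1 activator Rheb (87.8 ± 10.6 to 112 ± 5.55, 0.35, limma adjusted p = 0.00175). Of 11 tested genes of the integrated stress response, which acts through phosphorylated eIF2, Atf4 (0.21, limma adjusted p = 0.0461) and Asns (0.19, limma adjusted p = 0.00322) rose, and the median was -0.08.

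Markers of the cell types such cultures can hold were compared in the same way. Between polyP and control limma called Flt1 (the 1 tested of 4 endothelial genes) and Col1a1 (1 of 5 fibroblast and meningeal genes) lower. Of 10 oligodendrocyte lineage genes it called Olig1 higher and Mobp lower. Mobp lay at only 0.51 to 1.24 FPKM over the libraries, near the filter, and Olig1 at 49.2 to 165. The 8 neuronal, 7 astrocyte and 7 microglial genes and the 1 tested motor neuron gene were not called. The summed FPKM of 4 endothelial genes lay at 9.66 to 12.19 in control and 5.91 to 9.23 in polyP, with Pecam1, Cldn5 and Cdh5 at or below 0.86, 0.67 and 1.12 FPKM in every library, so nearly all of it was Flt1. The sum of the 5 fibroblast and meningeal genes lay at 716 to 1156 and 466 to 917, and that of the 8 neuronal genes at 910 to 1497 and 1249 to 1643. The astrocyte sum lay at 242 to 464.5 and 233 to 358, the oligodendrocyte lineage sum at 128 to 861 and 225 to 889, and the microglial sum at 32.3 to 370.3 and 34.0 to 115. Of these sums only the endothelial one did not overlap between the groups. Their part in the rise of the translation factors was not tested. In the fit with library set as a term 49 members were called higher, where 32.7% of all tested genes were. Within set 1 alone 30 members were called higher (15.7% of all tested genes) and within set 2 alone 41 (29.0%), against 42 in the pooled fit. Leaving out each library in turn gave 36 to 43 (19.6% to 23.4% of all tested genes).

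Of the 42 members called higher, 32 were called in every fit that left out 1 library, and 10 lost the call in at least 1, with limma adjusted p between 0.0501 and 0.114. The share of all tested genes called higher in every such fit was not counted, and it cannot exceed 19.6%. Eif5b, the subunit joining GTPase, had the weakest call (0.15, limma adjusted p = 0.0484) and lost it in 15 of the 19 fits, at most to 0.114 without control replicate 1. Eif1a lost it without control replicate 2, 4 or 5 or polyP replicate 1, 2 or 3 (limma adjusted p = 0.0503 to 0.0984). Eif2a lost it without control replicate 1 or 2 or polyP replicate 2, 4 or 5 (0.0545 to 0.0686), and Eif2b3 without control replicate 2 or 4 or polyP replicate 2 or 4 (0.0605 to 0.0779). The estimates of these 4 members in the fit of all libraries were 0.15, 0.26, 0.17 and 0.17. Among the kinases, Eif2ak1 lost it without control replicate 2 or polyP replicate 1 or 2 (limma adjusted p = 0.0603 to 0.0635), and Eif2ak2 without control replicate 1 or 4 or polyP replicate 5 (0.0562 to 0.0709). Eif1 lost it without control replicate 2 or polyP replicate 4 or 5 (limma adjusted p = 0.0697 to 0.0728), and Eif4b without control replicate 1 or polyP replicate 4 or 5 (0.0518 to 0.0618). Eif5a2 lost it without control replicate 4 or 5 or polyP replicate 1 (limma adjusted p = 0.0524 to 0.0594), and Eif3f without polyP replicate 5 (0.0506). None of the 18 members called under every scaling was among these 10.

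Related genes can be set against each other within a library, which removes any scaling of the whole library. Of 10 ratios of related genes compared between polyP and control, 2 passed after Benjamini-Hochberg adjustment over the 10 (two-sided exact permutation tests). The ratios were added after their values were seen, and the adjustment over the 10 does not cover that choice. The ratio of Eif4g2 to Eif4g3 ran from 5.03 to 7.46 in control and from 8.66 to 11.1 in polyP, a log2 difference of 0.62 with no overlap (exact p = 0.00794, adjusted p = 0.0397). The ratio of Eif1ax to Eif1a ran from 2.28 to 2.62 in control and from 2.75 to 3.18 in polyP, a log2 difference of 0.28 with no overlap (exact p = 0.00794, adjusted p = 0.0397). The other 8 ratios did not pass. The ratio of Eif4ebp1 to Eif4ebp3 differed by 0.65 (exact p = 0.0317, adjusted p = 0.106), and that of Eef1a1 to Eef1a2 by 0.36 (exact p = 0.135, adjusted p = 0.251), with 1 control library at 64.0, above all polyP libraries. A p of 0.00794 is the smallest that 5 against 5 libraries allow. Within either library set alone the smallest reachable exact p is above 0.05, and the Eif4g2 to Eif4g3 difference was 0.58 in set 1 and 0.67 in set 2, and that of Eif1ax to Eif1a 0.28 and 0.27.

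**Figure D4:**
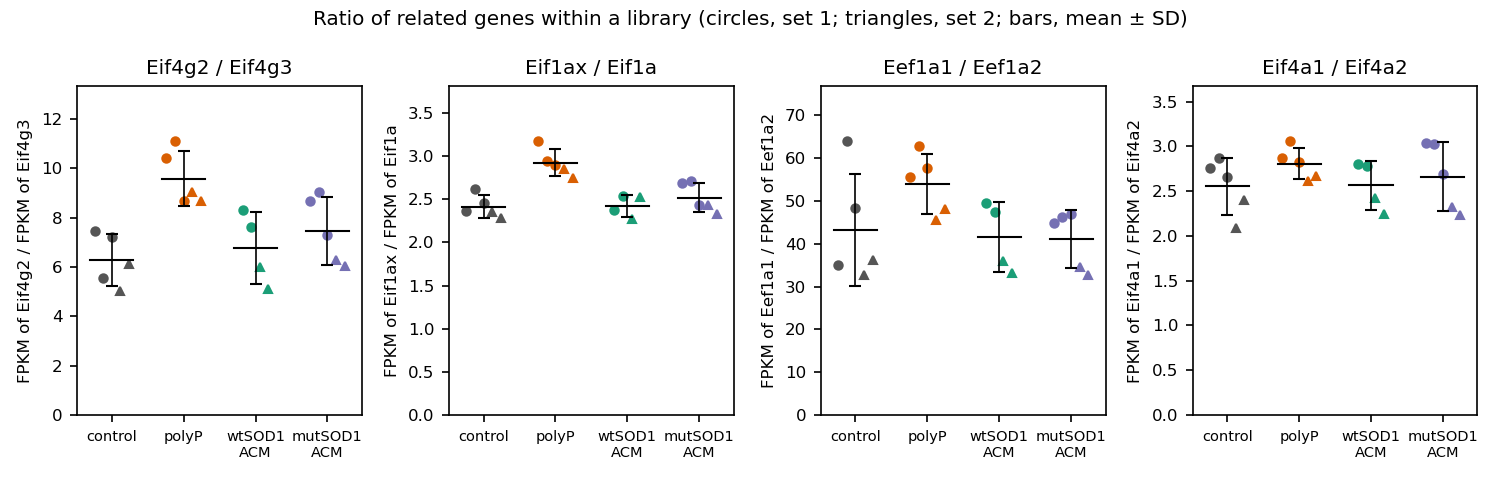
Ratio of the FPKM of 2 related genes within a library (y axis, from 0) by group for 4 of the 10 pairs, a point per library (circles, library set 1; triangles, set 2) with mean ± SD. The polyP libraries lie above all control libraries for Eif4g2 to Eif4g3 (8.66 to 11.1 against 5.03 to 7.46) and for Eif1ax to Eif1a (2.75 to 3.18 against 2.28 to 2.62), and overlap with control for the other pairs.

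The direct comparison of polyP with mutSOD1-ACM, the 2 treatments named in the series title, used the same polyP libraries. In it 28 members were called higher with polyP, 0 lower and 34 were not called, with a median log2 difference of 0.16. Across all tested genes 14.8% were called higher and 4.90% lower (median 0.04), and among genes with a mean FPKM of 10 or more 19.3% were called higher. No member was called lower by limma, and the 40 members at an unadjusted p under 0.05 were all higher. In 25 members every polyP library lay above every mutSOD1-ACM library, which held for 12.3% of all tested genes. By role, 4 of 6 eIF2 genes, 8 of 12 eIF3 genes, 4 of 10 eIF4 genes and 5 of 9 known TOP mRNAs were called. Outside the members, 71 of 79 ribosomal protein genes and 5 of 11 integrated stress response genes (45.5%) were called higher with polyP. So were 4 of 14 mTORC1 genes (28.6%), 5 of 7 of termination and recycling and 2 of 5 poly(A)-binding and TOP regulator genes. Of the mitochondrial factors 3 of 9 were, and of the hypusine route 1 of 4. No gene of these lists was called lower.

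Eif4ebp1 had the smallest p. It stood at 37.82, 40.37, 31.70, 33.50 and 37.08 FPKM in mutSOD1-ACM replicates 1 to 5, all below the lowest polyP library (36.1 ± 3.47 against 50.8 ± 5.72, SD; 0.48 ± 0.08 SE, limma adjusted p = 0.00181). Eif2s3 stood at 64.58, 63.89, 63.20, 64.26 and 63.26 FPKM in mutSOD1-ACM, a very narrow range below all polyP libraries (0.28 ± 0.05 SE, limma adjusted p = 0.00191). Eif2s2 and Eif2s1 differed by 0.35 and 0.28 (limma adjusted p = 0.00242 and 0.00742), and Eif4e by 0.23 (limma adjusted p = 0.00479). Eif1ax was 0.41 higher (limma adjusted p = 0.0163) and Eef1a1 0.26 higher (limma adjusted p = 0.0261). Eef2 was 0.13 higher as deposited (limma adjusted p = 0.0137) and 0.07 lower after quantile normalization. Eif4g3 was not called, at 53.2 ± 4.08 and 59.1 ± 7.68 FPKM (-0.14, limma adjusted p = 0.357).

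Replicates of polyP and mutSOD1-ACM with the same number deviated together. With only these 2 groups and the replicate number as a block, 49 members were called higher and 2 lower (31.8% and 18.1% of all tested genes). With all 4 groups and the block 39 were called higher (21.6% of all tested genes). That block joins wtSOD1-ACM replicate 3, of library set 2, with replicate 3 of the other groups, of set 1. Without the block the count fell to 18 without polyP replicate 2 and to 18 without mutSOD1-ACM replicate 3 (9.88% and 9.99% of all tested genes), and 16 members were called in every fit that left out 1 library. The 12 that lost the call in at least 1 fit were Eef1a1, Eef1e1, Eif2a, Eif2b2, Eif2b5, Eif3b, Eif3c, Eif3d, Eif3l, Eif4a1, Eif4g2 and Eif4h, with limma adjusted p between 0.0501 and 0.108. The count was 0 within library set 1 alone, where limma called 0.540% of all tested genes higher and 26 members were higher at an unadjusted p under 0.05, and 35 within set 2 alone (23.5% of all tested genes), where 2 members were called lower (15.9%). With median of ratios, equal sums and quantiles 12, 13 and 15 members were called higher (6.24%, 6.62% and 9.38% of all tested genes), and 10 were called under all 3 scalings: Eef1d, Eif2s1, Eif2s2, Eif2s3, Eif3el1, Eif3h, Eif3i, Eif3j, Eif4e and Eif4ebp1. Shares of all tested genes were not counted for calls under all 3 scalings or in every fit that left out 1 library. They cannot exceed 6.24% and 9.88%. The members' share of the summed FPKM was 2.09% ± 0.0737 with mutSOD1-ACM and 1.10-fold higher with polyP (two-sided exact permutation p = 0.00794).

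**Figure D5:**
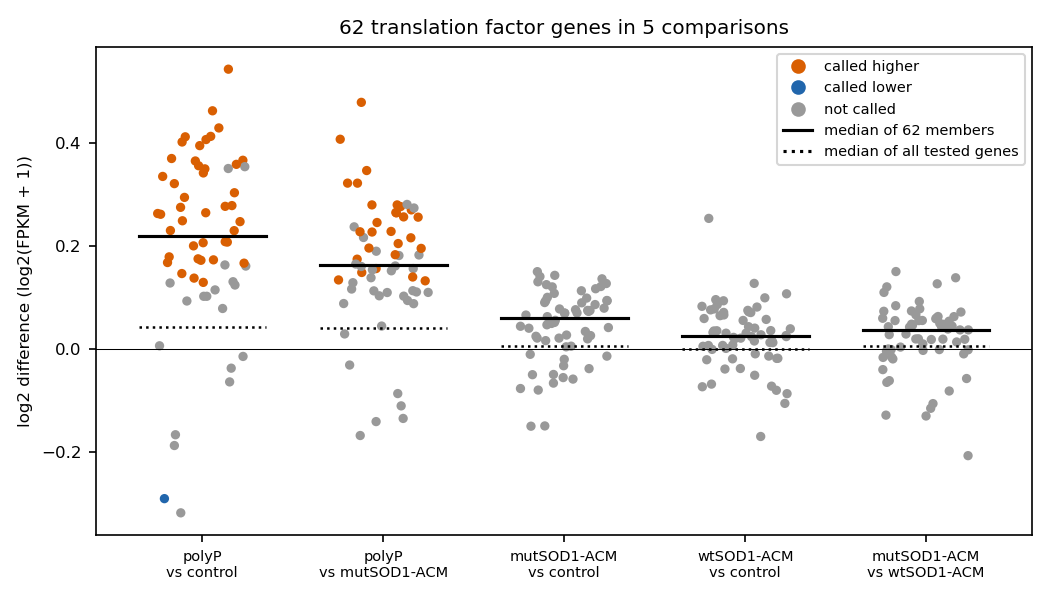
Log2 difference of log2(FPKM + 1) (y axis) for the 62 members, a point each, in the 5 comparisons (x axis), colored by call, with the median of the members (solid line) and of all tested genes (dotted line). The members' median is 0.22 and 0.16 in the comparisons of polyP with control and with mutSOD1-ACM and at most 0.06 in the other 3, where no member is called.

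The conditioned media left no called change in any member. For mutSOD1-ACM against wtSOD1-ACM, which asks what mutant SOD1 in the astrocytes adds, limma called 0 of 62 members, and 1 member reached an unadjusted p under 0.05. Of all tested genes 0.471% were called in either direction. The members' log2 differences ran from -0.21 (Eif2ak4) to 0.15, with a median of 0.04, and the 95% intervals of all members stayed between -0.54 and 0.60. Eif6 stood at 73.31, 73.83, 74.07 and 73.08 FPKM in wtSOD1-ACM replicates 1 to 4 and at 64.88, 70.64, 64.09, 70.32 and 66.37 in mutSOD1-ACM. All wtSOD1-ACM libraries lay above all mutSOD1-ACM libraries, and Eif6 was not called (-0.13, limma adjusted p = 0.998). The share of all tested genes that separated in this way was not counted.

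For wtSOD1-ACM against control limma also called 0 of 62 members, 2 reached an unadjusted p under 0.05, and 0.631% of all tested genes were called in either direction. The range was -0.17 (Eif4ebp1) to 0.25 (Eif6), with a median of 0.02. Eif6 had 66.80, 54.38, 60.42, 58.00 and 69.39 FPKM in control, all below the 4 wtSOD1-ACM libraries (0.25 ± 0.07 SE, limma adjusted p = 0.185). With equal sums or quantiles it was called, as the 1 member higher. How many of all tested genes separated between these groups was not counted. In this comparison 5 of 11 tested integrated stress response genes were called, targets of the pathway that starts at eIF2. Chac1 (50.3 ± 5.29 to 30.5 ± 4.32 FPKM, -0.71, limma adjusted p = 0.00146), Asns (25.2 ± 0.536 to 20.9 ± 0.985, -0.26, limma adjusted p = 0.00831), Sesn2 (24.7 ± 3.26 to 15.3 ± 3.28, -0.67, limma adjusted p = 0.00850) and Trib3 were lower with wtSOD1-ACM, and Ppp1r15a was higher. None of the 4 eIF2 kinase genes and none of the 6 eIF2 complex genes was called in it.

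For mutSOD1-ACM against control limma called 0 of 62 members, 2 reached an unadjusted p under 0.05 (Eif5a, 0.13, and Eif3m, 0.14), and 0.0168% of all tested genes were called in either direction. The range was -0.15 to 0.15, with a median of 0.06, and the 95% intervals of all members stayed between -0.61 and 0.46. Eif2s1 stood at 61.94, 64.83, 56.49, 55.89 and 54.96 FPKM with mutSOD1-ACM, overlapping control (0.13, limma adjusted p = 0.966). Eif1ax stood at 74.08, 70.10, 64.90, 57.39 and 51.30 FPKM, also overlapping control. The 3 comparisons with control share the 5 control libraries, and a miss of the threshold does not show that the levels are equal.

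Some members differed more between the library sets than between treatments, which is given as a description because the sets were drawn from these data. In 4 of the 62 members every library of set 1 lay below every library of set 2, and in 0 the reverse held. Among all tested genes the shares were 7.98% and 5.51%, so the members separated by set no more often than genes at large. Besides Eif4ebp3 the 4 members were Eif2ak3 (10.18 to 12.01 against 12.19 to 15.59 FPKM), Eif3k (56.56 to 69.65 against 74.37 to 93.92) and Eif4a2 (141.29 to 185.62 against 188.47 to 199.46). These 4 genes were among the 19 members not called between polyP and control.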

How the data were processed

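RNA from 4 groups of primary rat spinal cord cultures was sequenced, with 4 or 5 libraries per group, from independent cultures per the labels' protocols. The authors deposited FPKM per gene and library, in 1 table with 2 decimals, per the file headers. Reads were aligned with HISAT to rn6, per the submitters' processing notes. For the tool, the annotation and any scaling behind the FPKM, nothing is stated in the labels or headers used here. Every sample column was matched to a library by name. The limma p-values set a group difference against the spread between libraries within the 4 groups. The main fit holds no term for library set or replicate number, so differences between sets are part of that spread.

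Genes with an FPKM of 1 or more in at least 4 of the 19 libraries were tested on log2(FPKM + 1), a scale that understates the change of low genes, in R 4.3.3 with limma 3.58.1 (trend and robust, statmod 1.5.0). All 4 groups entered 1 fit. P-values are two-sided and adjusted by Benjamini-Hochberg over 11887 genes, with a call at an adjusted p under 0.05. The script was tested on simulated data. Total fragment numbers are not known, so no counting interval is given. Relative depth came from 109 low genes, whose 384 values were whole multiples of 1 fragment within 0.1 in 96.6% of cases, and was fitted to those same genes. No count test was run.

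The members and lists were chosen with earlier results of these data known. Named with values are the members on a fixed list of 39 symbols, of which Eif3e and Eif4g1 were not analysed. Also named are the called members with the smallest p per comparison (at most 10 each way, or 5 where fewer than 3 were called). The 5 highest and 3 lowest members and at most 3 called genes per pathway list complete the choice. Ratios, Eif1ax, Eef1e1, Eif2s3y, Eif3b, Eif3c, Eif3k, Eif5b and Trib3 were added after their values were seen. Same-numbered replicates of polyP and mutSOD1-ACM deviated together (correlation of deviations 0.688 to 0.764 in the 5 pairs), so the numbers were taken to pair these groups. In the other comparisons at least 1 pair was below 0.1. The alternatives were other scalings, filters, a pseudocount of 0.1, no trend, other sample selections, a replicate block, library set as a term, each set alone and each library left out.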

Additional observations from a re-analysis of the deposited data

Results flagged for a closer look

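Of 248 sets of values (62 members in 4 groups) 8 held a library whose gap to its nearest neighbor was large against the range of its group (Dixon's test at 95%), where chance gives about 1 in 20. In polyP, Eef2k stood at 21.35 FPKM in replicate 2 against 23.13 to 23.51 in the others. Eif2a stood at 18.32 in polyP replicate 1 against 20.11 to 20.58, and at 18.59 in mutSOD1-ACM replicate 5 against 16.72 to 17.17. Eif2ak1 stood at 19.8 in wtSOD1-ACM replicate 3 against 20.92 to 21.05. Eif2b1 stood at 25.65 in wtSOD1-ACM replicate 4 against 28.74 to 29.31, and at 31.00 in mutSOD1-ACM replicate 3 against 28.31 to 29.05. Eif2b2 stood at 32.73 in polyP replicate 3 against 36.55 to 38.10, and Eif4e at 61.78 in mutSOD1-ACM replicate 4 against 59.43 to 60.01. Each of the 8 values came from another library.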

How the results depend on the processing

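For polyP against control, median of ratios, equal sums and quantiles gave 26, 22 and 26 members called higher and 2, 2 and 2 lower. Of all tested genes 15.1%, 11.8% and 19.5% were called higher and 13.0%, 14.0% and 9.30% lower. After quantile normalization Eef2 (-0.15), Eif1 (-0.029) and Eef1g (-0.014) turned lower, and Eef2 also against mutSOD1-ACM (-0.075). Lower calls numbered 3 with library set as a term, 0 in set 1, 3 in set 2 and 0 to 2 without 1 library. Of all tested genes 19.4%, 5.59% and 18.6% were called lower in the first 3 of these fits. Without polyP replicate 2 it was 6.79% and without mutSOD1-ACM replicate 3 it was 8.47%. The members' share of the summed FPKM was 1.12-fold higher in set 1 and 1.13-fold in set 2, sets too small for an exact p under 0.05, and 1.11 to 1.14-fold without 1 library. Equal sums and quantiles called 1 member higher for wtSOD1-ACM against control, where 0 were called as deposited.

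For polyP against mutSOD1-ACM the scalings gave 12, 13 and 15 members called higher (6.24%, 6.62% and 9.38% of all tested genes). Set 1 gave 0 higher (0.540%), and set 2 called 2 lower (15.9%). Leaving out 1 library gave 18 to 32 members called higher (9.88% to 17% of all tested genes). With a replicate block for the pairing and only these 2 groups, 49 were called higher and 2 lower (31.8% and 18.1% of all tested genes). For polyP against control, where the numbers were not taken to pair, the block gave 47 higher and 3 lower with all groups (30.2% and 18.0% of all tested genes), and 40 higher and 3 lower with only the groups compared (27.5% and 15.3%). The block changed no call for the conditioned media. It joins wtSOD1-ACM replicate 3, of library set 2, with replicate 3 of the other groups, of set 1. The deviations of wtSOD1-ACM replicate 3 correlated at -0.725 with those of mutSOD1-ACM replicate 3 and at -0.687 with those of control replicate 3. The block is thus no check of the wtSOD1-ACM comparisons, and every block fit with all 4 groups holds the same mismatch.

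None of the scalings uses transcript length, and a dependence of the changes on length was not tested. Absolute depth is unknown, so low members such as Eif4e3 carry counting error of unknown size. The causes of these differences between settings were not tested.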
